A study of Mus musculus with 11 samples.

Results

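Mitochondrial ribosomal proteins were followed in the whole heart of male mice, 8 to 12 weeks of age, measured by sequencing of polyA RNA in 11 libraries. The genes were taken as every protein-coding gene of the deposited count table whose mouse symbol starts with Mrpl or Mrps and a digit, which gave 78 of 35584 genes. All 78 passed the minimum of a mean of 10 normalised counts and so were among the 13884 genes tested. WT mice (n = 3) had received diphtheria toxin at 0.01 µg per g of body weight over 3 weeks. Macrophage-depleted mice (n = 3) carried CD169-DTR, a toxin receptor allele active in macrophages that express CD169, received toxin on the same schedule, and are labelled as depleted for 21 days. Mertk-KO mice (n = 2) are labelled as lacking Mertk, a receptor with which macrophages take up dying cells and debris, and LXR-DKO mice (n = 3), labelled LxRαβ DKO, as lacking both liver X receptors. Toxin is not mentioned for the last 2 groups, so that genotype and toxin cannot be told apart when they are set against WT, and in the Macrophage-depleted mice the allele and the depletion cannot be told apart. Whether the libraries of a group come from different mice is not stated, so p-values reflect the library-to-library spread alone, which may be technical.

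Mitochondrial ribosomes translate the few proteins encoded by mitochondrial DNA, all of them core parts of the respiratory chain and ATP synthase on which the beating heart depends. Their RNA comes from the mitochondrial genome, but every protein of both subunits is encoded in the nucleus, made in the cytosol and imported. Some of these proteins have counterparts in bacterial ribosomes and others are found in mitochondria alone. Of the 78 genes, 30 encode bacterial-type proteins of the large subunit, 21 mitochondria-specific proteins of the large subunit, 15 bacterial-type and 11 mitochondria-specific proteins of the small subunit. The large-subunit class holds 2 genes whose symbols point to the small subunit, Mrps30 and Mrps18a. Mrps36 was kept apart because its product is now known as a subunit of the 2-oxoglutarate dehydrogenase complex of the TCA cycle.

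The libraries held 10938600 to 20722295 estimated reads, and 3 reads were worth 2.12 to 4.22 normalised counts. The least abundant gene of the 78 had 133 reads or more in every library. The log values of replicates correlated across genes at 0.959 for the Mertk-KO pair and at 0.976 to 0.987 within the other groups. Siglec1, which encodes CD169, ranged from 0.719 to 33.8 normalised counts in Macrophage-depleted hearts and from 53.4 to 64.3 in WT. Mertk ranged from 75.7 to 89.4 in Mertk-KO and from 130 to 147 in WT, without overlap, and the labels do not say which exons the allele lacks. It was also below WT in Macrophage-depleted (75.4 to 125) and LXR-DKO hearts (93.6 to 103), so a low count of Mertk is not particular to the Mertk-KO libraries. The liver X receptor genes Nr1h3 and Nr1h2 had at most 29.0 and 99.6 normalised counts in LXR-DKO and at least 155 and 525 in WT. Summed counts of 7 cardiomyocyte markers lay between 744650 and 938243 in all 11 libraries. In whole tissue, fewer cells of a type and less RNA per cell cannot be told apart.

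Some short motifs are more frequent in the promoters of these genes than in promoters at large, and they are shown here as a property of the set that the choice by symbol did not use. RefSeq windows of GRCm38.p6, from 250 bases before to 50 bases after the annotated start, were matched for 69 of the 78 genes. A gene with several windows, such as Mrpl48 with 4, counted once if any of them matched. The motif CCGGAAG of the ETS family, searched on both strands, was found for 26 of the 69 genes (37.7%) and for 13.4% of 16522 protein-coding genes. The YY1 motif AAGATGGCG was found for 8 genes (11.6%, against 2.25% of all genes). The NRF1 motif GCGCATGCG was found for 7 (10.1%, against 2.74%), and its looser form GCGCANGCG, which contains it, for 16 (23.2%, against 10%). The general promoter motifs were no more frequent than elsewhere. The GC box GGGCGG was found for 49.3% against 51%, the E-box CACGTG for 7.25% against 9.18%, and TATAAA for 7.25% against 14.3%. The liver X receptor element DR4 was found for none of the 69 genes and for 0.00605% of all. Each match describes letters in the window and does not show that a factor binds there.

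An ETS, an NRF1 and a YY1 match are shown in the windows of 3 genes that rose in Mertk-KO hearts, and the last window, of Mrps11, holds the stretch between 2 divergent genes of the set. The capitals mark the motif in the first 3 windows, on either strand, with overlapping NRF1 matches run together. In the Mrps11 window they mark the 141 bases, chr7:78783040-78783180, that also lie in the window of Mrpl46, which is transcribed in the opposite direction.
Mrps23 promoter, chr11:88204138-88204437, plus strand: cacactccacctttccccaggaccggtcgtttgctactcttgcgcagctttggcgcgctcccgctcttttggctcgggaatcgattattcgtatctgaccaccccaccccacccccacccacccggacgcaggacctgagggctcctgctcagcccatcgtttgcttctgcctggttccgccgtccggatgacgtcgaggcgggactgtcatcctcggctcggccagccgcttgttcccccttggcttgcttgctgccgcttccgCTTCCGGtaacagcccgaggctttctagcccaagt
Mrpl32 promoter, chr13:14612988-14613287, minus strand: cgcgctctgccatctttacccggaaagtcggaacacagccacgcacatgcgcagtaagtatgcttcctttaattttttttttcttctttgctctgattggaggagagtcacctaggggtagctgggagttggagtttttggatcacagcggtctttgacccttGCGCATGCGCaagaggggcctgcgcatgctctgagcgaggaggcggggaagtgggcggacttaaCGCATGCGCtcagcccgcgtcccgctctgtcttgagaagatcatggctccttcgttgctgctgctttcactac
Mrps18a promoter, chr17:46110754-46111053, plus strand: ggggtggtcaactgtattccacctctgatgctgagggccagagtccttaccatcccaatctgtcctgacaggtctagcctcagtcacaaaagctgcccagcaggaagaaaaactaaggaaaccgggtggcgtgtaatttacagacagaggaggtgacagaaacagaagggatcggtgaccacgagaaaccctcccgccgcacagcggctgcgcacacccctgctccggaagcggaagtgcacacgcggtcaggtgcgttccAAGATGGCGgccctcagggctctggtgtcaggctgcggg
Mrps11 promoter, chr7:78782881-78783180, plus strand: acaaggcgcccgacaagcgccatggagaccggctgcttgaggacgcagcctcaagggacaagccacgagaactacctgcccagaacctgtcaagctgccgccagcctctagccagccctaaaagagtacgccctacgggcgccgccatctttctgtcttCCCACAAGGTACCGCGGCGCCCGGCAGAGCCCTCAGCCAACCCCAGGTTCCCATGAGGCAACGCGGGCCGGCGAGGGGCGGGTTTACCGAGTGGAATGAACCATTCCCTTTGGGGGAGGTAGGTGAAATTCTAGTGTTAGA

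In WT hearts the genes stood high among expressed genes, within a narrower range than expressed genes as a whole. On the scale per transcript length, normalised TPM, their median was 48.98, against 9.12 for the 12318 genes at 1 or more, and their 25th percentile of 30.3 lay above the 75th percentile of those genes, 22.9. Mrpl42, which encodes a mitochondria-specific large-subunit protein, stood highest at 423, 411 and 417 normalised TPM. Mrps21, a bacterial-type small-subunit protein, followed at 266, 227 and 230, and Mrpl30 of the large subunit at 180, 200 and 200. These 3 did not overlap with each other in WT. At the low end, Mrpl57 had 7.72, 6.38 and 8.10 normalised TPM, Mrpl11, whose product sits at the base of the stalk that contacts translation factors, had 12.3, 14.6 and 12.2, and Mrpl1, of the stalk beside the tRNA exit site, had 13.5, 13.8 and 13.9. Mrpl57 lay below all others, while Mrpl11 and Mrpl1 overlapped. Between the 10th and the 90th percentile of the 78 genes the level rose 4.76-fold, against 32.2-fold for all genes at 1 or more, and 68 of the 77 pairs of neighbours in the order overlapped. The class medians were 51.7 and 37.2 for bacterial-type and mitochondria-specific proteins of the large subunit and 49.5 and 35.3 for those of the small subunit. The order depends on how length enters, since normalised counts per kilobase of annotated transcript spanned 7.78-fold and followed normalised TPM with a Spearman rho of 0.645 over the 78 genes.

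**Figure D1:**
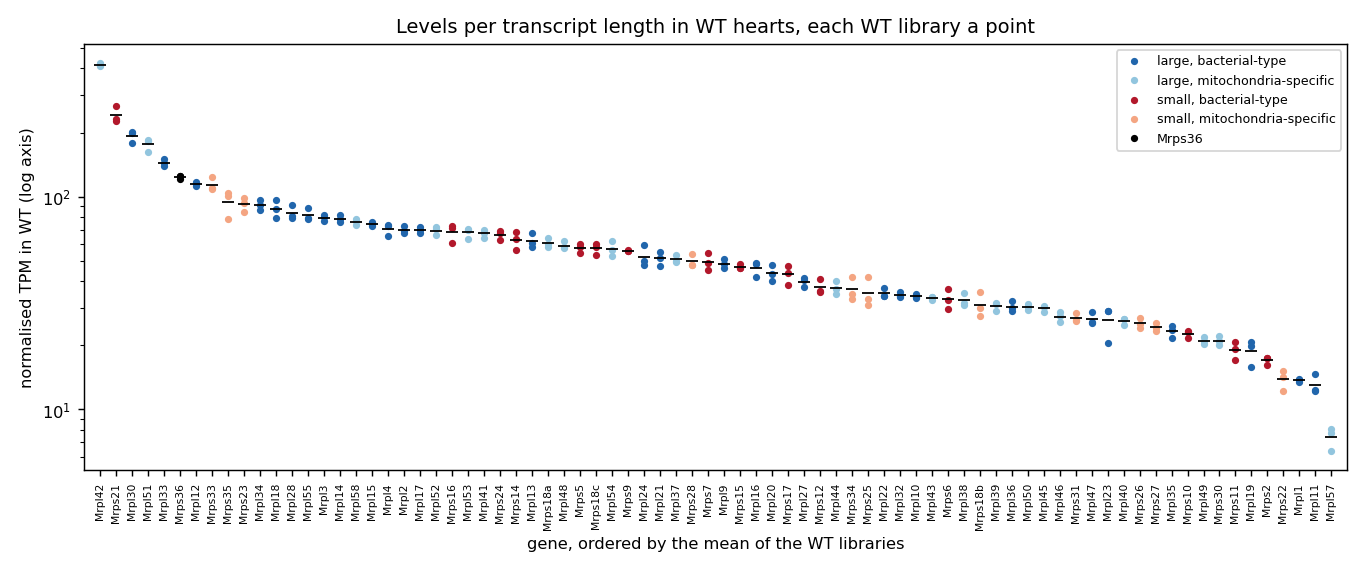
Normalised TPM on a log axis for the 78 genes in WT hearts, in the order of their means. Each point is 1 of 3 WT libraries, bars mark the means and colours the subunit class. All classes are spread along the order, from Mrpl42 at 417 to Mrpl57 at 7.40, and most neighbours overlap.

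Copies of these genes, among them pseudogenes, bear on these levels. Of the 78 genes, 25 have at least 1 copy of 90% identity or more among the transcripts of other annotated genes, of whatever type. Among them are all of the 3 with the highest levels, and 22 of the 25 have such a copy in the normalised TPM table. Mrpl23-ps1, a processed pseudogene of Mrpl23, was listed there at 59.0 to 69.7 normalised TPM in WT, and Mrpl23 itself at 20.5 to 29.1. The copies had no entry in the count table. Exons of another gene overlap those of 33 members, 28 of them on the opposite strand, and no source used here says whether strand was counted. The values of genes with a copy or an overlap are therefore uncertain, and 31 genes have neither.

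Macrophage depletion left the mitochondrial ribosomal protein genes close to WT. None of the 78 passed the threshold in either direction, adjusted p below 0.05 by limma, where 0.0792% of all genes tested rose and 0.158% fell. An unadjusted p below 0.05 was found for 2 of the 78 genes, and for 1046 of all 13884 genes tested. A fit with voom weights also made 0 calls. The median difference was -0.04 on the log2 scale, against 0.00 for all genes tested, and 18 of the 78 were higher than in WT. In 12 genes the 3 Macrophage-depleted libraries lay below all WT libraries (15.4%, against 8.15% of all genes). The median rests on 1 library. Relative to the WT mean, the median of the 78 genes was 0.00 and 0.02 in Macrophage-depleted 1 and 3 and -0.15 in Macrophage-depleted 2. Without that library the median difference was 0.02 and 44 genes were higher. In Macrophage-depleted 2 the median of 7 cardiomyocyte markers was also lowest, at -0.22 against 0.05 and -0.01 in the other two, and over all genes the differences from WT correlated with transcript length (rho 0.231) and GC content (rho -0.303). With a trend on length and GC content taken out of each library, the median of the 78 genes in Macrophage-depleted 2 was -0.09. The median difference from WT was then -0.03, and 27 genes were higher. The part of the cardiomyocyte markers in the result was not tested.

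Among single genes, Mrps2, a small-subunit protein with a bacterial counterpart, had the smallest p in this comparison. It had 391, 432 and 431 normalised counts in WT hearts and 346, 361 and 371 after depletion. The groups did not overlap, with a log2 difference of -0.22 ± 0.09 (SE) and an adjusted p of 0.610 by limma. Mrps22, of the small subunit, had 180, 161 and 206 in WT and 213, 200 and 246 after depletion, which overlap (log2 difference 0.27, adjusted p 0.636). Mrpl3 had 1109, 1088 and 1089 in WT and 1028, 1013 and 925 after depletion, all lower (log2 difference -0.15, adjusted p 0.661). The differences of Mrpl38 (0.18), Mrps31 (0.14) and Mrpl55 (-0.18) had adjusted p of 0.797 to 0.858. Summed counts of 5 resident macrophage markers ranged from 193 to 663 in these hearts and from 1034 to 1099 in WT.

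In Mertk-KO hearts most mitochondrial ribosomal protein genes were higher than in WT. Of the 78, 22 rose (28.2%) where 3.38% of all genes tested did, and none fell where 5.89% did. The median difference was 0.32 on the log2 scale, a 1.25-fold change, against -0.01 for all genes tested. In 76 of the 78 the mean was higher. In 57 the unadjusted p was below 0.05 by limma, as it was in 3977 of all 13884 genes tested. In 66 (84.6%) both Mertk-KO libraries lay above all WT libraries, against 21.4% of all genes. The 22 genes rose 1.25-fold to 1.49-fold. Both libraries showed the shift. Against the WT mean, the median of the 78 genes was 0.28 in Mertk-KO 1, with 71 genes above it, and 0.37 in Mertk-KO 2, with 77 above it. In the other 9 libraries it was -0.15 to 0.22. The 78 genes took 0.347% and 0.356% of the estimated reads in Mertk-KO and 0.294% to 0.303% in WT.

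**Figure D2:**
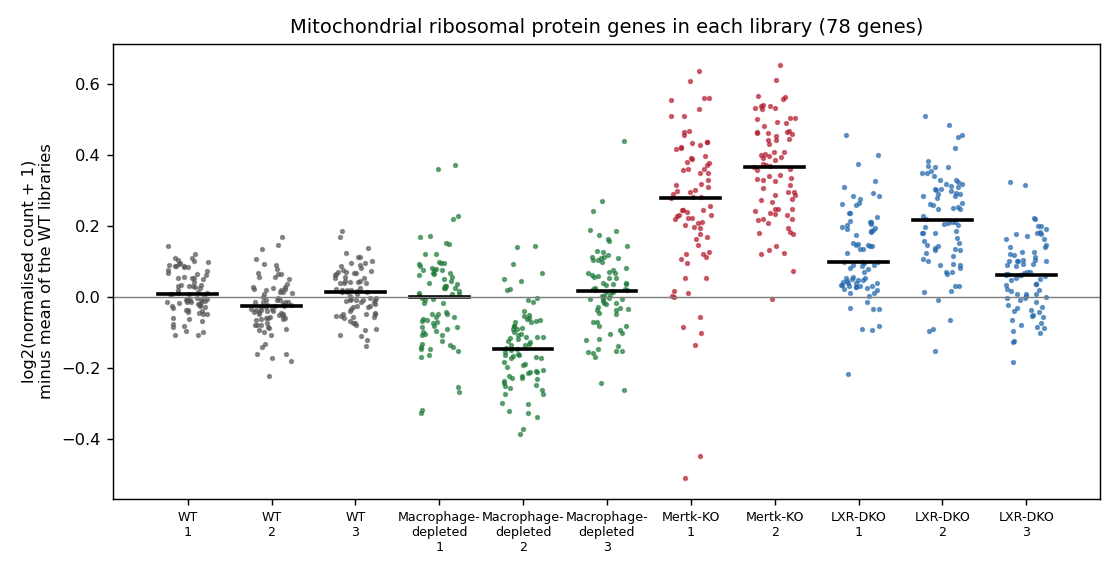
Difference of each of the 78 genes from its WT mean, on the log2 scale, in each of the 11 libraries. Points are genes and bars are medians. The medians are 0.28 and 0.37 in the Mertk-KO libraries, 0.06 to 0.22 in LXR-DKO and -0.15 to 0.02 in Macrophage-depleted.

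Genes of both subunits and of both origins rose. Of the 30 bacterial-type genes of the large subunit 12 rose, with a median difference of 0.32, and of the 21 mitochondria-specific ones 4 rose, with a median of 0.31. In the small subunit 3 of 15 bacterial-type genes rose (median 0.26) and 3 of 11 mitochondria-specific genes (median 0.33). Mrps36 did not pass (log2 difference 0.38, adjusted p 0.0520). Whether the classes differ from each other was not tested.

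Among bacterial-type proteins of the large subunit, Mrpl28 (chr17:26123500-26126613, plus strand) had the smallest p. It had 955, 852 and 894 normalised counts in WT, 950, 849 and 896 in Macrophage-depleted, 1321 and 1302 in Mertk-KO and 997, 1111 and 964 in LXR-DKO hearts. The Mertk-KO libraries lay above all others, and the log2 difference from WT was 0.54 ± 0.09 (SE, limma, adjusted p 0.0120). Mrpl14 encodes a protein at the subunit interface, where the silencing factor Malsu1 docks. It had 488, 446 and 445 normalised counts in WT, 490, 440 and 519 in Macrophage-depleted, 678 and 679 in Mertk-KO and 523, 570 and 572 in LXR-DKO. Here too both Mertk-KO values exceeded all others, and those of LXR-DKO lay between, above every WT library. The log2 difference of Mertk-KO from WT was 0.56 ± 0.10 (adjusted p 0.0120).

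Mrpl20 had 290, 287 and 275 normalised counts in WT, 256, 267 and 286 in Macrophage-depleted, 385 and 413 in Mertk-KO and 327, 360 and 326 in LXR-DKO. The LXR-DKO values again lay between those of WT and Mertk-KO without overlap. Mrpl32, whose product is cut to its mature form by the m-AAA protease before it joins the ribosome, had 270, 281 and 255 in WT and 283, 286 and 273 in Macrophage-depleted. It had 352 and 411 in Mertk-KO and 298, 319 and 267 in LXR-DKO, so that only the Mertk-KO libraries stood clear of WT. The log2 differences from WT were 0.49 for Mrpl20 (adjusted p 0.0192) and 0.50 for Mrpl32 (adjusted p 0.0240). Mrpl12, which besides its place in the stalk of the ribosome binds the mitochondrial RNA polymerase, had 1648, 1538 and 1552 in WT and 2116 and 2336 in Mertk-KO. It rose by 0.49 (adjusted p 0.0305), while Macrophage-depleted values of 1519, 1315 and 1742 and LXR-DKO values of 1670, 1924 and 1579 surrounded or overlapped those of WT.

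Of the mitochondria-specific large-subunit proteins, Mrps18a rose from 587, 557 and 557 normalised counts in WT to 766 and 796 in Mertk-KO. Macrophage-depleted values were 563, 527 and 568 and LXR-DKO values 695, 690 and 604, the latter above all WT libraries. Its log2 difference in Mertk-KO was 0.46 ± 0.09 (SE, adjusted p 0.0173). Mrpl43 had 421, 441 and 443 in WT and 620 and 586 in Mertk-KO, with 440, 423 and 430 in Macrophage-depleted and 424, 507 and 445 in LXR-DKO. Only Mertk-KO stood clear (log2 difference 0.47, adjusted p 0.0192), and its exons overlap those of Twnk, the mitochondrial DNA helicase, on the opposite strand. Mrpl58 encodes a peptidyl-tRNA hydrolase that frees stalled ribosomes and is also a structural protein. It had 449, 490 and 515 in WT and 564 and 639 in Mertk-KO, higher in both but short of the threshold (log2 difference 0.31, adjusted p 0.0827). Mrps30 had 379, 383 and 397 in WT and 462 and 437 in Mertk-KO (log2 difference 0.22, adjusted p 0.114).

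In the small subunit, Mrps23 rose from 1590, 1488 and 1525 normalised counts in WT to 2115 and 2015 in Mertk-KO. Macrophage-depleted values were 1457, 1395 and 1459, all below WT, and LXR-DKO values 1590, 1710 and 1610. The log2 difference of Mertk-KO from WT was 0.43 ± 0.07 (SE, adjusted p 0.0120). Mrps12 encodes a protein of the decoding centre, where codon and tRNA are matched. It had 268, 254 and 297 in WT, 283, 235 and 286 in Macrophage-depleted, 416 and 396 in Mertk-KO and 330, 381 and 309 in LXR-DKO. It had the greatest log2 difference of the 22 genes (0.57 ± 0.13, adjusted p 0.0240) and the widest spread of log2 values over the 11 libraries of the 78 (SD 0.27), followed by Mrpl34 (0.27) and Mrpl57 (0.26). Mrpl34, of the large subunit, had 555, 487 and 515 in WT and 702 and 748 in Mertk-KO (log2 difference 0.48, adjusted p 0.0379). Mrpl57 had 224, 181 and 233 in WT and 305 and 249 in Mertk-KO and did not pass (adjusted p 0.214).

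The 3 Mrps18 paralogs descend from 1 bacterial protein and occupy different places, Mrps18a in the large and the others in the small subunit. Mrps18b had 312, 363 and 296 normalised counts in WT, 324, 294 and 269 in Macrophage-depleted, 415 and 396 in Mertk-KO and 327, 416 and 322 in LXR-DKO. Mrps18c had 249, 284 and 269, then 212, 248 and 240, then 243 and 351, and 272, 357 and 245 in the same order of groups. Mertk-KO stood clear of WT for Mrps18b and straddled it for Mrps18c, and neither passed (adjusted p 0.137 and 0.674 by limma), whereas Mrps18a did. The difference between paralogs was not itself tested, and Mrps18b and Mrps18c each have a copy as defined above.

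**Figure D3:**
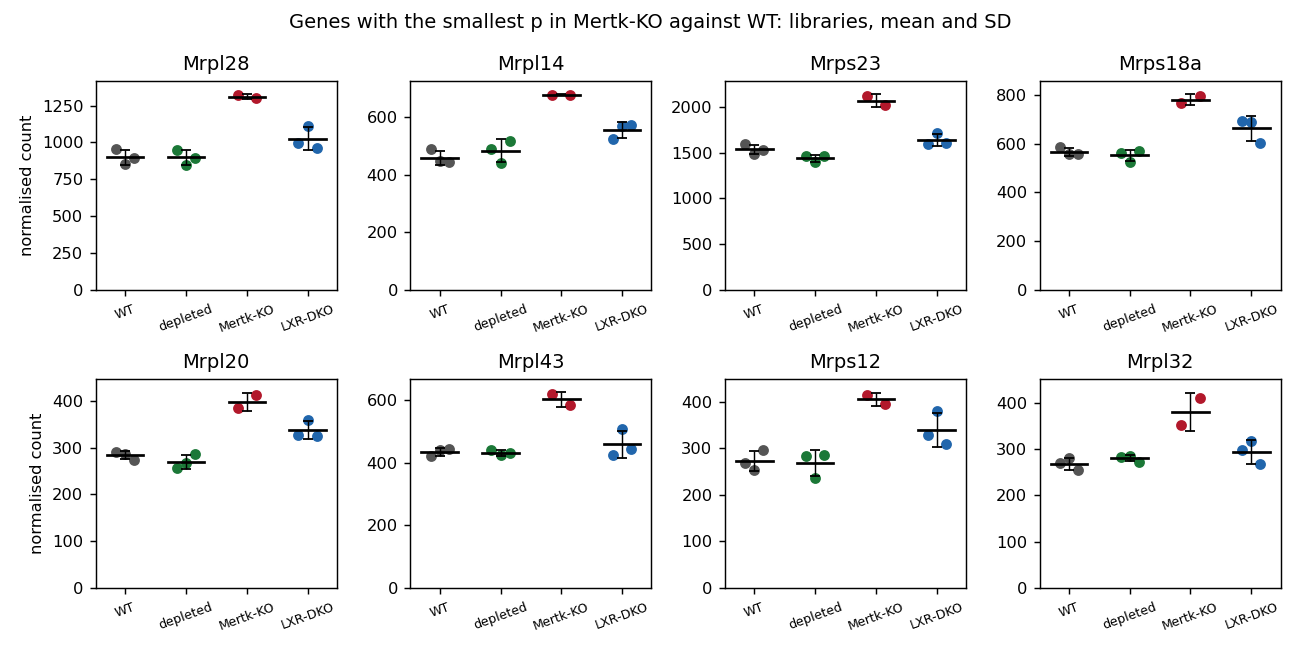
Normalised counts of the 8 genes with the smallest p in Mertk-KO against WT, by group. Points are libraries, with the mean and SD of each group. In all 8 the 2 Mertk-KO libraries lie above the 3 WT libraries.

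Only 2 genes had a lower mean in Mertk-KO than in WT, and in both the 2 libraries disagreed. Mrpl50 had 780, 758 and 739 normalised counts in WT hearts and 532 and 828 in Mertk-KO, and Mrpl1 had 396, 416 and 412 in WT and 299 and 478 in Mertk-KO. Mertk-KO 1 was below and Mertk-KO 2 above all WT libraries in each. Mrpl50 had a log2 difference of -0.19 (adjusted p 0.403) and Mrpl1 of -0.11 (adjusted p 0.705).

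The count of 22 rests on few libraries. It was 3 without WT 1, 2 without WT 2, 0 without WT 3 and 10 without LXR-DKO 1, which enters through the shared estimate of spread; it was 0 with only the 2 groups in the fit. The share of all genes that rose fell as well, to 0.216%, 0.18%, 0.0936% and 1.26% in these 4 fits with a library left out. With Mertk-KO 1 left out the median difference of the 78 genes was 0.37, and with Mertk-KO 2 left out it was 0.28. Each of these fits rests on 1 Mertk-KO library, so no counts are given for them. The median difference of the 78 genes held between 0.28 and 0.37 in all of these fits. Both Mertk-KO libraries differed from WT in other ways as well, and the part of each in the result was not tested, except as given for transcript length. The 4 atrial markers were all lower there, with summed counts of 1675 and 2995 against 3433 to 25595 in WT; none was at 0, and Sln, at 2.16 counts in Mertk-KO 2, was under the floor. None of these 4 passed the threshold. Summed counts of 4 markers of all macrophages were 2735 and 3735 against 2186 to 2568 in WT. Of 7 cardiomyocyte markers 1 rose, Mb, which encodes myoglobin, and the median of their differences between groups was -0.03. By library, the median of the 7 was 0.10 and 0.17 in Mertk-KO, above the -0.05 to 0.03 of the WT libraries.

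Transcript length moved with the result. Over all genes tested, how far each gene of a library stood from its WT mean correlated with transcript length, at a Spearman rho of -0.253 for Mertk-KO 1 and -0.517 for the other, and with GC content at 0.502 and 0.192. The mitochondrial ribosomal protein genes are short, with a median of 1302 bases against 3114 for all genes tested. Within the 78, the 22 genes that rose had a median of 1242.5 bases and 53.4% GC, and the other 56 had 1378.5 bases and 49.4% GC. Among the 78, rho between length and difference was -0.175 in Mertk-KO 1 and -0.439 in Mertk-KO 2. These correlations are across genes of the same libraries, which are not independent replicates.

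**Figure D4:**
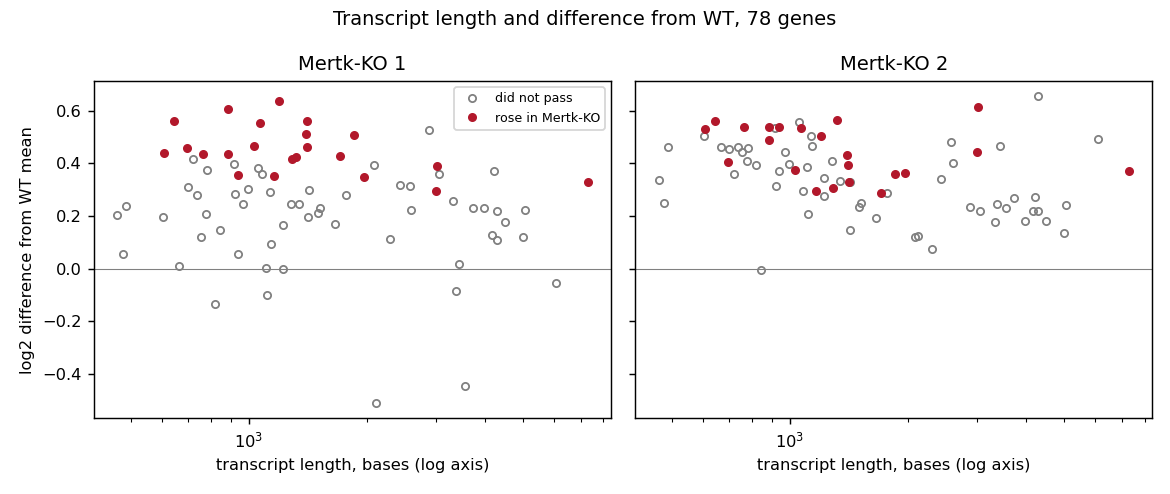
Transcript length in bases, on a log axis, against the log2 difference from the WT mean for the 78 genes in each Mertk-KO library. Filled points are the 22 genes that rose. In Mertk-KO 2 the shorter genes lie higher (rho -0.439), and in Mertk-KO 1 the slope is shallower (rho -0.175) and 2 genes, Mrpl50 and Mrpl1, lie lowest.

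With a trend on length and GC content taken out of each library, the median difference in Mertk-KO fell to 0.14, and 65 of the 78 genes were still higher than in WT. The library medians were then 0.12 and 0.18, against -0.03 to 0.01 in WT. In this fit 5 genes passed, and the share of all genes that rose was 0.613%. Mrpl32 (0.67, adjusted p 0.0161), Mrpl17 (0.73, adjusted p 0.0100) and Mrps14 (0.64, adjusted p 0.0394) were among the 22, and Mrpl15 and Mrps17 were not. The longest annotated transcript, used for the trend, is 7300 bases for Mrpl17, and with the median transcript length of each gene in its place 3 genes passed (0.555% of all genes rose), all among the 22, with a median difference of 0.15. Normalised TPM puts each gene on a scale per length but does not remove a trend with length across the genes of a library. In that table the median difference was 0.26 and 7 genes rose where 1.07% of all genes did. All were among the 22: Mrpl14, Mrps18a, Mrpl20, Mrpl43, Mrpl32, Mrps12 and Mrpl53. Mrpl32 was the only gene past the threshold in all of the count table, the table of normalised TPM and the fit with the longest transcript. Among the fits that left out 1 library and kept both of Mertk-KO, it no longer passed without WT 1, WT 2 or WT 3. Its log2 difference was 0.39 to 0.72 over all alternative fits, those with 1 Mertk-KO library included. All 5 genes past the threshold with the trend removed ranked lower in WT per kilobase of longest transcript than in normalised TPM. Mrpl32 ranked 74 against 51 of the 78, and Mrpl17 ranked 78 against 21. The differences of all 5 were greater with the trend removed. The length used entered these calls, since Mrpl15 and Mrps17 did not pass with the median transcript length. Beyond this, its part was not tested.

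**Figure D5:**
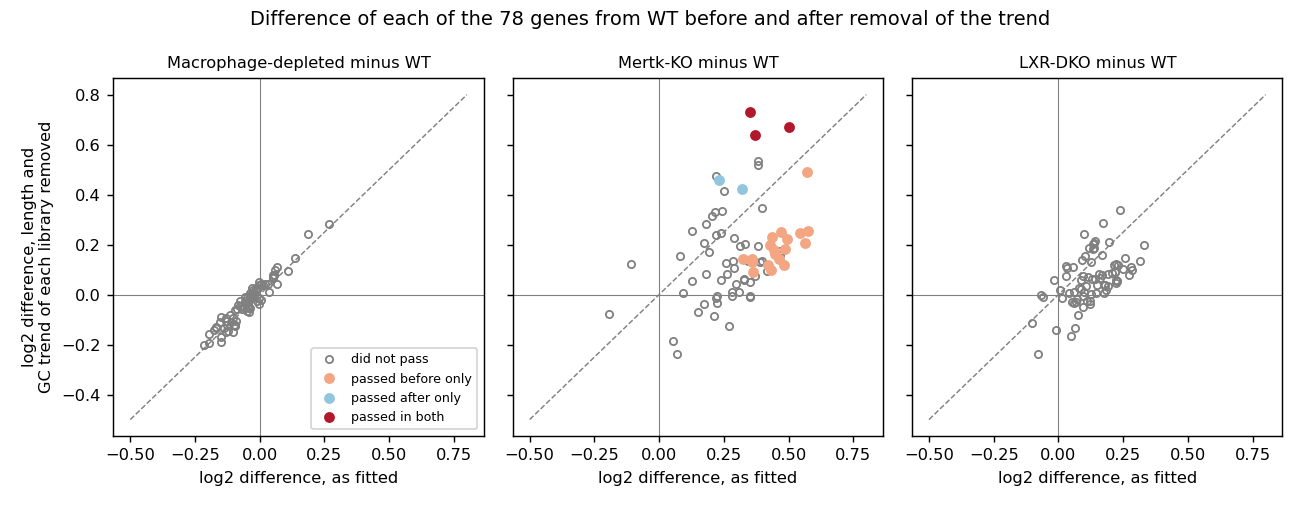
Log2 difference of each of the 78 genes from WT, as fitted (horizontal) and after the length and GC trend of each library was removed (vertical), in 3 panels for Macrophage-depleted, Mertk-KO and LXR-DKO. The dashed line marks equal values. Most Mertk-KO points lie below the line, where the median falls from 0.32 to 0.14, and 3 genes pass in both fits.

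In LXR-DKO hearts the genes leaned the same way by less, and none passed the threshold, where 0.216% of all genes rose and 0.202% fell. The median difference was 0.13 against 0.00 for all genes, and 72 of the 78 were higher than in WT. An unadjusted p below 0.05 was found for 14, and for 1601 of all 13884 genes tested. A fit with voom weights made 0 calls as well, and array weights, which weigh each library by its scatter, made 3, in a fit where 2.43% of all genes rose. In 27 genes (34.6%, against 12.0% of all genes) the 3 libraries lay above all WT libraries. The library medians were 0.10, 0.22 and 0.06. Mrpl14, given above, had the smallest p (log2 difference 0.27, adjusted p 0.295 by limma). Mrps17, a small-subunit protein, had 471, 473 and 462 normalised counts in WT hearts and 536, 599 and 525 in LXR-DKO, without overlap (log2 difference 0.24, adjusted p 0.306). Mrpl23, which lines the exit of the peptide tunnel, had 467, 459 and 484 in WT and 564, 669 and 548 in LXR-DKO (log2 difference 0.33, adjusted p 0.326), with the pseudogene named above. In the other direction Mrpl39 (-0.10), Mrpl3 (-0.07) and Mrps30 (-0.06) had the smallest p, with adjusted p of 0.641 to 0.785. Length also moved here, with a rho over all genes of -0.391 in LXR-DKO 2, the library with the highest median, and of -0.263 and -0.149 in LXR-DKO 1 and 3. With the length and GC trend removed, the median difference was 0.06 and 60 genes were higher. Summed counts of the 4 atrial markers ranged from 1611 to 17491 in these hearts and those of the 5 resident macrophage markers from 629 to 836. The 7 cardiomyocyte markers had library medians of 0.18, 0.27 and 0.06, with a median difference of 0.17, and LXR-DKO 2 was highest for them and for the 78 genes alike. The 4 adipocyte markers had a median difference of 0.59, and of 1.39 in LXR-DKO 2. The part of these markers in the result was not tested.

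Set against each other directly, the Macrophage-depleted and Mertk-KO hearts differed most. In this comparison 42 of the 78 genes were lower in Macrophage-depleted hearts (53.8%), where 9.39% of all genes were, with a median difference of -0.35. The smallest p was that of Mrps23 (log2 difference -0.52, adjusted p 0.00256 by limma). The 42 comprised 17 bacterial-type and 10 mitochondria-specific genes of the large subunit, 9 and 5 of the small subunit, and Mrps36 (-0.51, adjusted p 0.0113). Mrps36 had 695, 624 and 690 normalised counts in Macrophage-depleted and 905 and 1001 in Mertk-KO hearts, and 759, 694 and 740 in WT, and it has 8 copies. The count was 20 without Macrophage-depleted 2 and 13 with the length and GC trend removed, where 4.17% and 3.54% of all genes were lower. Without Mertk-KO 2 the median difference was -0.32. Macrophage-depleted and LXR-DKO hearts differed in none of the 78, where 1.89% of all genes were lower, and the median difference was -0.18. An unadjusted p below 0.05 was found for 29, and for 2851 of all 13884 genes tested. Between Mertk-KO and LXR-DKO 1 gene passed, Mrps23, higher in Mertk-KO (log2 difference 0.34, adjusted p 0.0403), where 0.684% of all genes were, and the median difference was 0.18. These comparisons share libraries with those against WT and are not independent of them.

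Other parts of the mitochondrial translation system were read beside the 78 genes in Mertk-KO hearts, where 3.38% of all genes rose. Of 5 proteins of the mitochondrial ribosome that carry other names 2 rose (40%), with a median difference of 0.34. Dap3, a GTP-binding small-subunit protein, had 1012, 1078 and 1083 normalised counts in WT hearts and 1264 and 1289 in Mertk-KO (log2 difference 0.27, adjusted p 0.0408), and Aurkaip1 had 657, 602 and 636 and then 817 and 917 (0.45, adjusted p 0.0205). Of 26 ribosome assembly factors 2 rose (7.69%), the rRNA methyltransferases Mrm2 (0.46, adjusted p 0.0477) and Mrm3 (0.58, adjusted p 0.0296), and the median was 0.14. None of 13 translation factors passed (median 0.13); Tufm, the elongation factor that brings tRNA to the ribosome, had 2668, 2579 and 2597 in WT and 3308 and 3065 in Mertk-KO (0.28, adjusted p 0.0550). Of 20 genes for mitochondrial aminoacyl-tRNA synthesis 1 rose, Fars2 (0.31, adjusted p 0.0459), which is 5% and near the share over all genes, with a median of 0.13. None of 8 genes of mitochondrial transcription and mRNA handling passed (median 0.00), nor did any of the 13 mRNAs encoded by mitochondrial DNA itself (median 0.09). The Mertk-KO libraries disagreed in both lists. The medians in Mertk-KO 1 and 2 were -0.10 and 0.16 for the former and -0.09 and 0.26 for the latter. In LXR-DKO the assembly factor Ngrn rose from 224, 217 and 248 to 318, 368 and 335 normalised counts (0.56, adjusted p 0.0298), the only call in these lists there, and in Macrophage-depleted hearts there was none. Whether these lists differ from the 78 genes was not tested. They differ in median transcript length, which is 1302 bases for the 78 genes. It is 2494 for the proteins with other names, 2138 for assembly factors and 2588 for translation factors. For aminoacyl-tRNA synthesis it is 3282, for transcription and mRNA handling 2575, and for mRNAs of mitochondrial DNA 784. The part of length in these medians was not tested.

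The position of the genes and their promoter motifs were set beside the calls. On chromosome 2, Mrps26 lies 0.50 Mb from Siglec1 and 1.76 Mb from Mertk, and Mrps5 lies 1.09 Mb from Mertk. Neither passed in any comparison with WT, with log2 differences in Mertk-KO of 0.22 and 0.18. On chromosome 7, the gene of the set closest to Nr1h2 is Mrps12, at 15.8 Mb, which did not pass in LXR-DKO (0.31, adjusted p 0.349). Of the genes that rose in Mertk-KO, 9 of 20 with a promoter window (45%) held the ETS motif, and of the others 17 of 49 (34.7%). For NRF1 these were 3 of 20 and 4 of 49, and for YY1 2 of 20 and 6 of 49. Of the 31 genes with neither a copy nor an overlapping exon 13 rose, with a median difference of 0.33, and of the 25 with a copy 3 rose, with a median of 0.31.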

How the data were processed

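Whole-heart polyA RNA of 11 libraries in 4 groups was extracted with Trizol, amplified with the Ovation Single Cell kit and made into Illumina libraries, per the labels' protocols. CASAVA 1.8.2, cutadapt, RSEM 1.2.20, kallisto 0.43.1 and GRCm38 are named in the submitters' processing notes without roles. The authors deposited 2 tables of a signal per gene: normalised counts, which the values show to be reads scaled by each library's effective size after adding 0.5 read to every gene, and normalised TPM, rescaled between libraries. The sources used here do not give the scaling, the annotation release or the use of strand. From the smallest value of each library, worth 0.5 read, estimated reads were recovered. Only 58.9% to 62.2% of low values were whole within 0.01 read, so no whole-count test was run. Reads were divided by effective size and multiplied by its mean over libraries to give the normalised count.

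Genes with a mean of at least 10 (0.650 on the deposited scale) were tested with limma 3.58.1 in R 4.3.3, with a trend, on log2(normalised count + 1), in 1 model of 4 groups with 7 residual degrees of freedom. The test was two-sided, with Benjamini-Hochberg adjustment over all 13884 genes and a threshold of 0.05. "Rose" and "fell" mean that a gene passed. This scale understates the change of low genes. The fit was checked on simulated reads with planted differences larger than any of the mitochondrial ribosomal protein genes showed. The simulation gave every library the same spread and held no trend with length or GC content. It therefore does not show how calls of the size seen here would behave. Normalised TPM was tested as an alternative, on genes with a mean of at least 1. Symbols, transcript lengths and exons came from GENCODE M21 (35469 of 35584 identifiers matched), copies from blastn 2.17.0 (at least 90% identity over 50% of the shorter transcript and 200 bases), promoters from RefSeq. Length is that of the longest basic transcript.

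Values were named by rule: the 8 genes with the smallest p where over 10 passed against WT, otherwise the 3 with the smallest p in each direction; the 3 highest and 3 lowest in WT per length; the 3 with the widest SD; the Mrps18 paralogs; Mrps30, Mrps36, Mrpl12 and Mrpl58. Other genes were named after their values were seen. The genes and lists were chosen with earlier results of these data known. Mtf2, listed by error under mitochondrial transcription, was left out. Counting floors are 3 reads and cover counting error only, since amplified reads are not independent molecules.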

Additional observations from a re-analysis of the deposited data

How the results depend on the processing

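The alternatives were leaving out each library, a replicate block, removal of a length and GC trend, normalised TPM, other pseudocounts, minimums and scaling, only the groups compared, and array or voom weights. Removal of the trend by median transcript length was chosen after seeing the data. None of the 22 genes that rose in Mertk-KO against WT changed direction in any alternative, though many no longer passed. Calls named in the direct comparisons and in the other gene lists were not followed singly through the alternatives. In Mertk-KO against WT the count of 22 became 5 with the trend removed, 3 with median transcript length and 7 in normalised TPM. In these fits 0.613%, 0.555% and 1.07% of all genes rose. The count became 13 with no filter on low values, 0 with only the 2 groups compared and 0 with array weights. There 0.718%, 0% and 0.0144% of all genes rose. The median difference of 0.32 became 0.14 with the trend removed and 0.15 with median transcript length. Array weights gave 3 calls in LXR-DKO against WT, in a fit where 2.43% of all genes rose. In Macrophage-depleted against Mertk-KO the count of 42 became 13 with the trend removed, 16 with median transcript length and 27 in normalised TPM. In these fits 3.54%, 3.48% and 5.49% of all genes were lower. The count became 0 with only the 2 groups and 2 with array weights, where 0.216% and 0.749% of all genes were lower. In Macrophage-depleted against LXR-DKO the count of 0 became 2 with the trend removed, 1 with median transcript length and 1 with only the 2 groups. These are near the 1.71%, 1.59% and 1.93% of all genes that were lower. With array weights it became 14, in a fit where 8.15% of all genes were lower. In Mertk-KO against LXR-DKO the single call became 2 with the trend removed, 2 with median transcript length and 2 with a mean of at least 50. In these fits 0.771%, 0.779% and 0.944% of all genes rose. It became 0 in normalised TPM, with no filter, with only the 2 groups, with array weights and with voom weights. There 0.0576% to 0.403% of all genes rose. Apart from what the settings themselves change, the cause was not tested.

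Leaving out each library in turn gave 0 to 0 calls in Macrophage-depleted and in LXR-DKO against WT, 0 to 27 in Mertk-KO against WT, 20 to 43 in Macrophage-depleted against Mertk-KO, 0 to 6 in Macrophage-depleted against LXR-DKO and 0 to 9 in Mertk-KO against LXR-DKO. Median differences from WT were taken with any library left out, those of Mertk-KO included. They ranged from -0.08 to 0.02, from 0.28 to 0.37 and from 0.08 to 0.17 in Macrophage-depleted, Mertk-KO and LXR-DKO. Where 1 Mertk-KO library remained, it was assumed to vary like the other groups. The 43, 6 and 9 come from such fits, and the 9 mixes both directions, so nothing is drawn from them. With both Mertk-KO libraries kept, the highest counts in those comparisons were 42, 2 and 1. There 8.84% to 9.33%, 2.61% and 0.303% of all genes passed in the same direction. In Mertk-KO against WT, 0.0936% and 3.28% of all genes rose in the fits with 0 and 27 calls. In the fit with 20 calls 4.17% were lower.

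Same-numbered libraries shared only a number: 15 pairs correlated at -0.09 to 0.11 in their deviations from group means, 2 of them over 0.1. With the replicate block, 8 genes passed in Mertk-KO against WT, all among the 22, and 0 in Mertk-KO against LXR-DKO, where 0.634% and 0.31% of all genes rose. With the replicate block and the trend removed these counts were 1 and 0, where 0.115% and 0.339% of all genes rose. The median difference from WT was then 0.16 in Mertk-KO. In Macrophage-depleted against Mertk-KO 7 genes passed, where 1.9% of all genes were lower. For WT levels, counts per kilobase widened the 4.76-fold range to 7.78-fold. The ETS motif, searched on the strand of the gene only, was found for 21.7% of the genes with a window in place of 37.7%. Over all protein-coding genes with a window it was found for 7.38% in place of 13.4%.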
